A study of Rattus norvegicus with 5 samples.

Results

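Transcripts of growth cone and neuronal microtubule proteins were followed in the hippocampus of rats labelled P5, after fetal alcohol exposure, an isocaloric diet or a control diet. The genes listed were Gap43, Marcks, Stmn1, Stmn2, Dpysl2, Dpysl3, Map1b, Map2, Mapt and Tubb5, and a probe set belonged to the group when the probe annotation gave it exactly 1 gene symbol and that symbol was on the list. This gave 24 of 8740 probe sets, for 9 of the 10 genes. Stmn2 had no such probe set and was not analysed here. Marcks had 6 probe sets, Map2 5, Map1b and Mapt 3 each, Dpysl2 and Tubb5 2 each, and Gap43, Stmn1 and Dpysl3 1 each. Total RNA was measured on 5 single-colour arrays: 2 labelled fetal alcohol exposed, 1 labelled isocaloric diet, which matches an alcohol diet in calories, and 2 labelled control diet. The labels used here give neither strain, sex, alcohol dose nor time of exposure, and do not say whether each array held 1 animal or a pool. The spread between arrays of a group may therefore be technical in part, and a lower signal from fewer cells of a type cannot be told apart from less RNA per cell.

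A growing axon or dendrite is led by the growth cone, a motile tip in which a membrane and actin compartment lies in front of a bundle of dynamic microtubules. Gap43 and Marcks are membrane-bound substrates of protein kinase C that bind calmodulin. Stathmins such as Stmn1 bind tubulin dimers and destabilise microtubules, collapsin response mediator proteins (Dpysl2, Dpysl3) bind tubulin or the actin skeleton, and the microtubule-associated proteins Map1b, Map2 and tau (Mapt) stabilise the polymer, tau mainly in axons and Map2 mainly in dendrites. In the rodent hippocampus these proteins are abundant in the first postnatal days, when axons and dendrites are still growing.

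No probe set of the group passed the test against control diet. Of the 24, 22 were bright enough to be tested. In a limma fit over all 5244 tested probe sets, 0 of the 22 passed an adjusted p of 0.05 for fetal alcohol minus control diet, as did 0% of all probe sets, and 1 of 22 had an unadjusted p under 0.05 with lower signal, against 3.95% of all. None of the 22 had one with higher signal, against 1.66% of all. Differences were nonetheless mostly small and negative. The log2 difference was under 0 at 18 of 22 probe sets, against 49.5% of all, and their median was -0.19, against 0.005 over all tested probe sets. Both fetal alcohol arrays lay below both control diet arrays at 6 of the 22, against 17.7% of all, and above them at 0, against 16.8%. At least 1.5-fold lower were 2 of the 22, Map2 X53455cds_s_at and Marcks rc_AA955167_s_at, against 4.58% of all, and at least 1.5-fold higher were 0, against 1.79%. Probe sets of 1 gene share their transcript, so these counts are not independent.

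The negative differences rested in large part on fetal alcohol array 1. This array had the lowest of the 5 values at 13 of the 22 tested probe sets, against 25.2% of all tested probe sets, while array 2 of the same group had the lowest value at 1, against 18.2%. At the brightest tested probe set of each gene, array 1 was the lowest at 4 of 9 genes. All 5 Map2 and all 6 Marcks probe sets, tested or not, were lowest on array 1, so the count of 13 rested largely on these genes. The array 1 value lay under the array 2 value at 19 of 22, against 52.7% of all. The pair differed by at least 1.5-fold at 7 of the 22, against 20.5% of all, and was lower on array 1 at each of these 7, against 14.8%. The control diet pair differed by as much at 2 of the 22, against 7.61%. Without array 1 the median log2 difference from control diet was -0.056 and 13 of 22 were negative. Without array 2 the median was -0.41 and 20 of 22 were negative. Control diet array 1 held the highest of the 5 values at 12 of the 22, against 18.2% of all. Without it, 15 of 22 differences were negative, with a median of -0.16.

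**Figure D1:**
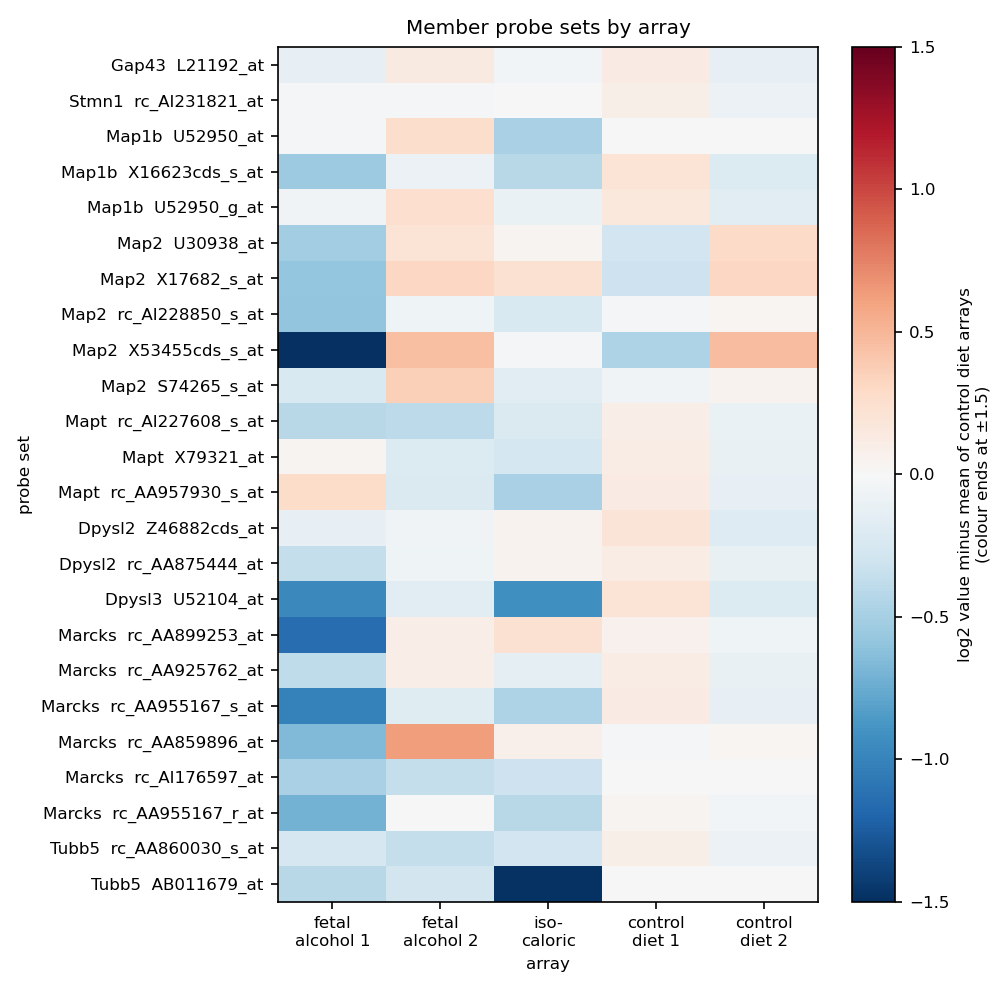
Each cell is 1 probe set (rows) on 1 array (columns), coloured by its log2 value minus the mean of both control diet arrays, blue for lower and red for higher. The Map2 and Marcks rows are blue on fetal alcohol array 1 (all 11 probe sets have their lowest value of the 5 arrays there) and paler or red on fetal alcohol array 2, and Tubb5 AB011679_at is dark blue on the isocaloric array.

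Among the membrane-bound kinase C substrates, Gap43 had nearly the same signal in every group. Its probe set L21192_at measured 2568 and 3069 on the fetal alcohol arrays, 2699 on the isocaloric one and 3029 and 2563 on the control diet arrays. The groups overlapped fully, and the highest value was only 1.20 times the lowest. The log2 difference between fetal alcohol and control diet was 0.01, with a 95% interval of -0.43 to 0.45. That interval spans folds of 0.74 to 1.36, so these arrays did not tell no change from a change within these limits. It is no limit of detection.

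Marcks, which cross-links actin and sequesters acidic phospholipids at the membrane until it is phosphorylated, differed between the fetal alcohol arrays at most of its probe sets. Probe set rc_AA899253_at measured 486 and 1169 on the fetal alcohol arrays, 1281 on the isocaloric one and 1137 and 1043 on the control diet arrays. Only fetal alcohol array 1 stood apart, below every other array. The probe set rc_AA955167_s_at measured 194 and 351 on the fetal alcohol arrays, 288 on the isocaloric one and 438 and 366 on the control diet arrays. Here both fetal alcohol values and the isocaloric value lay below the control diet values. The probe set rc_AA859896_at measured 41.0 and 116 on the fetal alcohol arrays, 75.4 on the isocaloric one and 69.4 and 72.4 on the control diet arrays, so the fetal alcohol arrays held both its lowest and its highest value. At rc_AA925762_at the values were 349 and 489.9 with fetal alcohol, 416 with isocaloric diet and 496 and 424 with control diet, and those of fetal alcohol and control diet overlapped. The last tested probe set, rc_AI176597_at, went otherwise, with 42.3 and 47.0 on the fetal alcohol arrays, 49.1 on the isocaloric one and 63.5 and 63.5 on the control diet arrays. There the fetal alcohol arrays were close to each other and lay below the other 3, and the difference from control diet was -0.42 ± 0.23, and -0.36 without array 1. All 6 Marcks probe sets had their lowest value on fetal alcohol array 1. The log2 differences of the 5 tested probe sets ran from -0.60 ± 0.31 (SE) to -0.01 ± 0.39, and none passed (limma adjusted p from 0.911 to 0.997). Without array 1 they ran from -0.36 to 0.63. Probe set rc_AA955167_r_at was under the intensity filter, with 4.69 and 14.4 on the fetal alcohol arrays, 8.06 on the isocaloric one and 15.1 and 13.7 on the control diet arrays.

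Of the tubulin-binding regulators, Stmn1 varied least of the 22 tested probe sets. Its values were 3465 and 3492 on the fetal alcohol arrays, 3546 on the isocaloric one and 3748 and 3336 on the control diet arrays. The fetal alcohol and isocaloric values all lay between the control diet values. The log2 difference between fetal alcohol and control diet was -0.02, with a 95% interval of -0.41 to 0.36, and its sign turned under quantile normalization (0.11) and equal medians (0.020). Stmn1 ranked 45 to 65 in brightness over the arrays, near the top that quantile normalization makes alike by construction.

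Dpysl2, which carries tubulin dimers to growing microtubule ends, also overlapped between groups. The probe set Z46882cds_at measured 121 and 129 on the fetal alcohol arrays, 139 on the isocaloric one and 153 and 116 on the control diet arrays, and rc_AA875444_at measured 70.6 and 89.1, 97.8, and 102 and 85.6 in the same order. At both probe sets the fetal alcohol values lay under the isocaloric value and the control diet arrays reached on both sides of it. The log2 differences from control diet were -0.09 ± 0.24 and -0.21 ± 0.24.

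Dpysl3, a relative of Dpysl2 that is most abundant in young neurons, had 2 low arrays from different groups. Its values were 88.7 and 163 on the fetal alcohol arrays, 91.9 on the isocaloric one and 213 and 157 on the control diet arrays. Fetal alcohol array 1 and the isocaloric array lay close together, and fetal alcohol array 2 lay within the control diet range. The log2 difference between fetal alcohol and control diet was -0.56 ± 0.31 (limma adjusted p = 0.927), and -0.16 without fetal alcohol array 1.

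**Figure D2:**
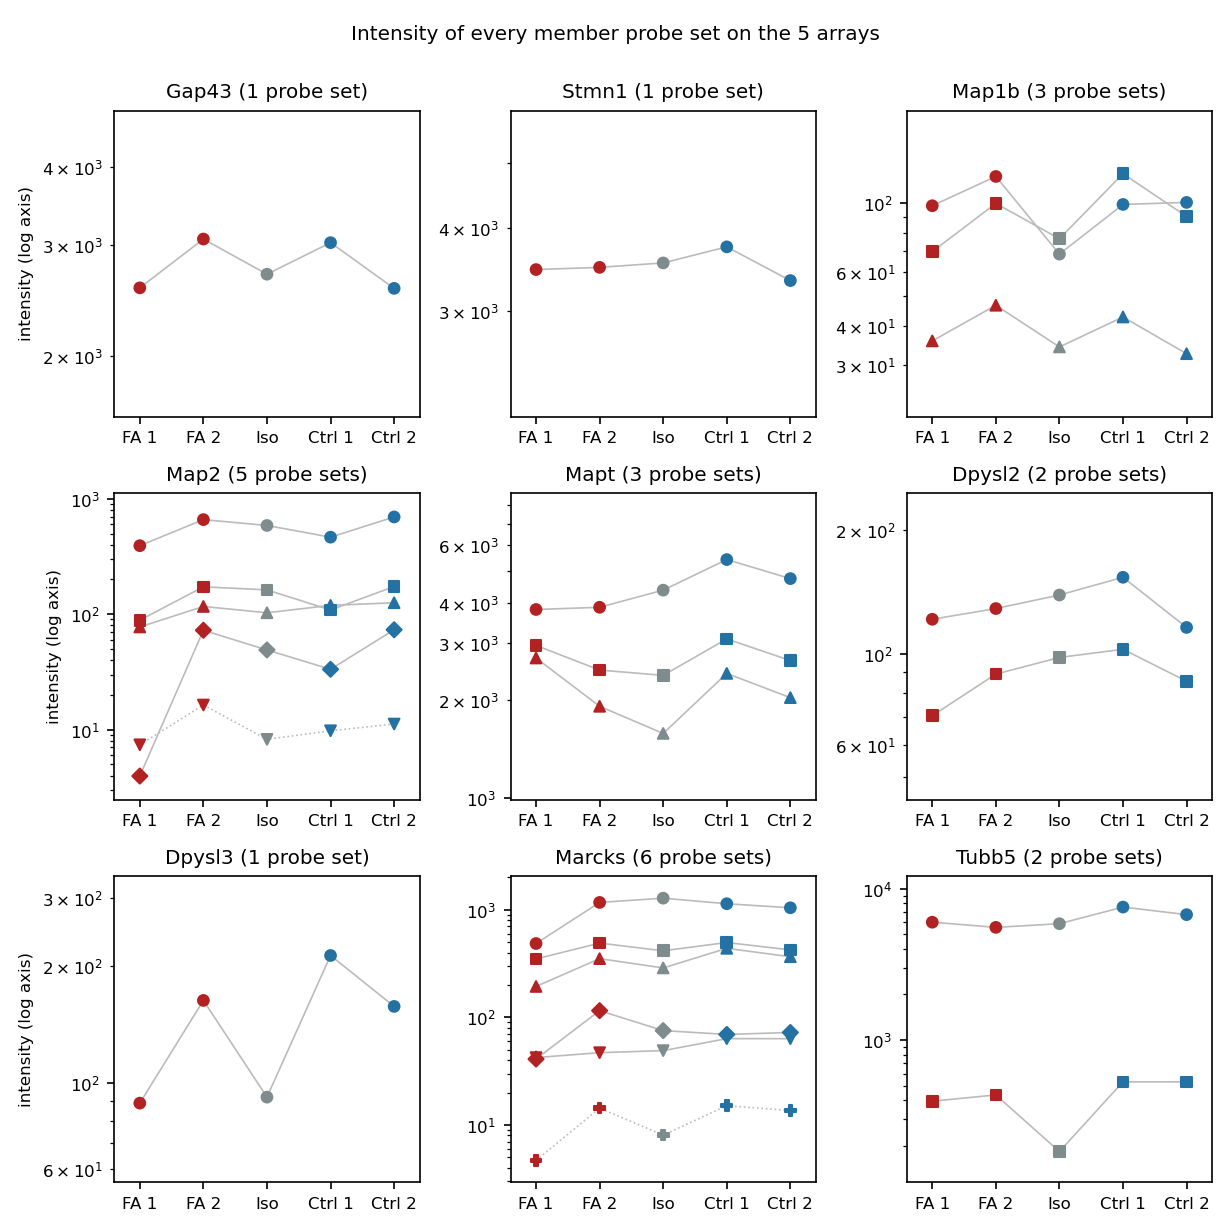
Each panel is 1 gene and each line 1 probe set, with intensity on a log axis and the arrays in the order fetal alcohol (FA, red), isocaloric (Iso, grey) and control diet (Ctrl, blue); dotted lines are probe sets under the intensity filter. Gap43 and Stmn1 are nearly flat, while all 5 Map2 and all 6 Marcks probe sets are lowest on fetal alcohol array 1.

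Among the microtubule-associated proteins, Map1b, the earliest of them in growing axons, differed by probe set. U52950_at measured 98.1 and 122 on the fetal alcohol arrays, 68.4 on the isocaloric one and 99.1 and 101 on the control diet arrays. The isocaloric array was the low one there. At X16623cds_s_at the values were 69.7 and 99.8 on the fetal alcohol arrays, 76.7 on the isocaloric one and 125 and 90.6 on the control diet arrays, and fetal alcohol array 1 was the low one. The log2 differences between fetal alcohol and control diet were 0.12 ± 0.23 and -0.31 ± 0.27. The remaining probe set, U52950_g_at, measured 35.8 and 46.8 with fetal alcohol, 34.3 with isocaloric diet and 42.8 and 32.6 with control diet, a difference of 0.10 ± 0.26 between overlapping groups.

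Map2 was lower on array 1 than on array 2 in both of the groups with 2 arrays. The probe set U30938_at measured 392 and 659.6 on the fetal alcohol arrays, 587 on the isocaloric one and 465 and 696 on the control diet arrays. The fetal alcohol and control diet ranges overlapped. X17682_s_at overlapped likewise, with 88.7 and 173 on the fetal alcohol arrays, 162 on the isocaloric one and 109 and 174 on the control diet arrays. At rc_AI228850_s_at they did not overlap, with 77.5 and 117 on the fetal alcohol arrays, 103 on the isocaloric one and 119 and 126 on the control diet arrays; both fetal alcohol values were below control diet, the second by little. X53455cds_s_at had the widest range of the 22 tested probe sets, with 3.96 and 72.5 on the fetal alcohol arrays, 49.0 on the isocaloric one and 33.3 and 73.3 on the control diet arrays. All 5 Map2 probe sets were lowest on fetal alcohol array 1, and all 5 were lower on control diet array 1 than on array 2. Among the 19 probe sets of the other 8 genes, control diet array 1 was the lower one at only 2. Over the 22 tested probe sets it was the lower one at 6, against 48.5% of all. The log2 differences of the 4 tested Map2 probe sets ran from -0.80 ± 0.70 to -0.14 ± 0.35 (limma adjusted p from 0.965 to 0.995), and without fetal alcohol array 1 from -0.064 to 0.45. The probe set under the filter, S74265_s_at, measured 7.39 and 16.3 on the fetal alcohol arrays, 8.23 on the isocaloric one and 9.77 and 11.2 on the control diet arrays. The replicate numbers are only names here, and what array 1 of each group might share is not given in the labels.

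Mapt, which encodes tau, had the smallest p of the group against control diet, at 1 of its 3 probe sets. The probe set rc_AI227608_s_at measured 3807 and 3867 on the fetal alcohol arrays, 4369 on the isocaloric one and 5427 and 4741 on the control diet arrays. The fetal alcohol arrays agreed closely and lay below the other 3. The log2 difference from control diet was -0.40 ± 0.16 (unadjusted p = 0.0375, limma adjusted p = 0.826), and -0.12 after quantile normalization. This probe set ranked 25 to 46 in brightness over the arrays, and that normalization makes the top of all arrays alike by construction. The smaller value is therefore no measure of how much of the difference was scaling. At the other Mapt probe sets the fetal alcohol and control diet arrays overlapped and the isocaloric array was the lowest of the 5. X79321_at measured 2949 and 2476 on the fetal alcohol arrays, 2385 on the isocaloric one and 3089 and 2649 on the control diet arrays, a log2 difference from control diet of -0.08 ± 0.19. For rc_AA957930_s_at the values were 2697 and 1914 on the fetal alcohol arrays, 1579 on the isocaloric one and 2418 and 2036 on the control diet arrays, a log2 difference of 0.03 ± 0.22. At these probe sets, unlike those of Map2 and Marcks, fetal alcohol array 1 was above array 2.

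Tubb5, a beta-tubulin that forms part of the microtubule itself, was the 1 gene with all its probe sets lower on both fetal alcohol arrays than on both control diet arrays, among the genes with more than 1. The probe set rc_AA860030_s_at measured 6009.7 and 5557 on the fetal alcohol arrays, 5875 on the isocaloric one and 7569 and 6745 on the control diet arrays. AB011679_at measured 394 and 433 on the fetal alcohol arrays, 183 on the isocaloric one and 529 and 528 on the control diet arrays. The log2 differences from control diet were -0.31 ± 0.15 and -0.35 ± 0.22 (limma adjusted p = 0.911 and 0.961). After quantile normalization the second was -0.37. The first had rank 3 or 4 in brightness on every array, where that normalization gives nearly equal values by construction (its difference became 0), so it holds no measure of a difference there. Beta-tubulin genes are close copies of each other in their coding sequence, and probe sequences were not used here, so signal from other beta-tubulins at these probe sets was not tested.

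The top of the intensity scale differed between arrays, which touches the bright probe sets of Tubb5, Mapt, Stmn1 and Gap43. The highest intensity on an array was 6397 and 5647 with fetal alcohol, 6142 with isocaloric diet and 8065 and 7195 with control diet. On the isocaloric array and control diet array 2 that highest value was a tubulin itself, Tubb2b X03369_s_at. The arrays were closer at their 98th percentile, with 2041 and 1885 for fetal alcohol, 2050 for isocaloric diet and 2102 and 2007 for control diet. Only fetal alcohol array 2 lay outside the control diet range there. At or over the 98th percentile of mean log2 value, a limit chosen after the values were seen, lay 6 probe sets of the group and 169 others. Of these 169, 119 were lower with fetal alcohol than with control diet, against 49.5% of all tested probe sets, with a median log2 difference of -0.11. After quantile normalization the median was 0.012. That scaling makes the top of all arrays alike by construction, so a median near 0 there was nearly fixed in advance. The part of this shift in the Tubb5 and Mapt differences was not tested.

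**Figure D3:**
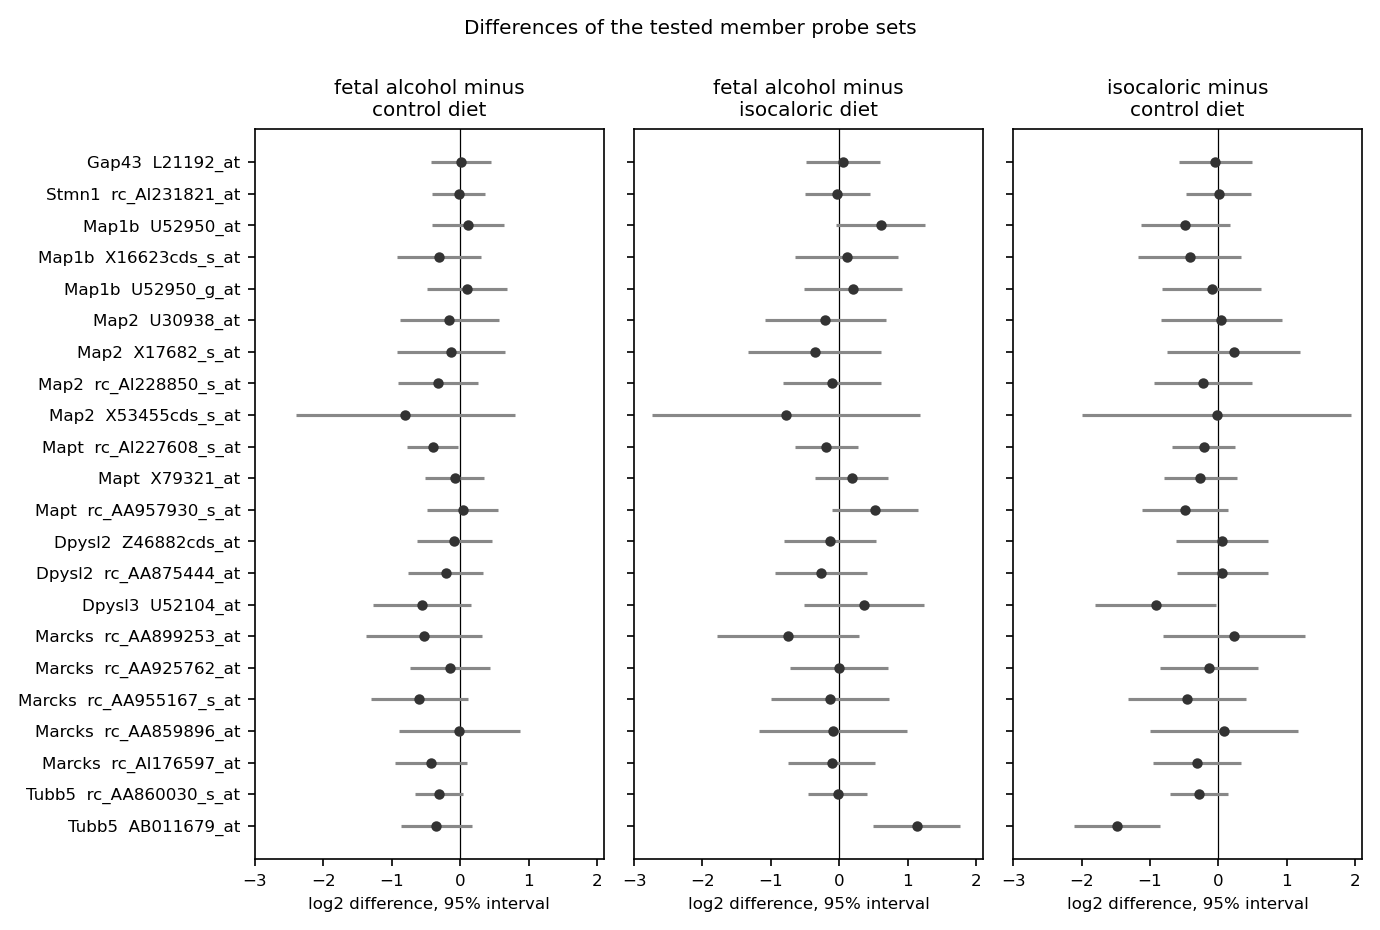
Points are log2 differences of the 22 tested probe sets in the 3 comparisons and bars are 95% intervals from the limma fit. Most intervals include 0, with Mapt rc_AI227608_s_at against control diet (-0.40) and Dpysl3 for isocaloric minus control diet (-0.92) among those that do not; those of Tubb5 AB011679_at lie above 0 for fetal alcohol minus isocaloric diet (1.13) and below 0 for isocaloric minus control diet (-1.48).

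The comparison of fetal alcohol with the isocaloric diet set the 2 fetal alcohol arrays against 1 array of the feeding control, whose spread was taken from the other groups. No member passed (0 of 22, and 0% of all probe sets), 1 of 22 had an unadjusted p under 0.05 with higher signal, against 2.67% of all, and 0 with lower signal, against 1.54%. The 1 was Tubb5 AB011679_at, at 2.19 times the isocaloric signal (95% interval 1.41 to 3.39, limma adjusted p = 0.986), while rc_AA860030_s_at of the same gene had a log2 difference of -0.02 ± 0.19. At least 1.5-fold higher were 2 of 22, against 5.13% of all: Tubb5 AB011679_at and Map1b U52950_at (0.60 ± 0.28). At least 1.5-fold lower were also 2, against 4.14%: Marcks rc_AA899253_at (-0.75 ± 0.45) and Map2 X53455cds_s_at (-0.78 ± 0.86). The log2 difference was under 0 at 14 of 22, against 50.3% of all, and at 7 of 22 without fetal alcohol array 1. Both fetal alcohol arrays lay above the isocaloric array at 5 of 22, against 31.5% of all, among them 2 of Map1b and 2 of Mapt. Both lay below it at 6, against 28.4%: both Dpysl2 probe sets, Stmn1, 2 of Marcks and Mapt rc_AI227608_s_at. The 3 Map1b probe sets all had positive differences and the 5 tested Marcks probe sets all negative ones; without fetal alcohol array 1, 3 of those 5 Marcks differences changed sign. The Gap43 log2 difference was 0.06 ± 0.23.

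The comparison of the isocaloric with the control diet rested on 1 array against 2 and shares the isocaloric array with the comparison before it and the control diet arrays with the first. Again 0 of 22 passed, as did 0% of all probe sets, and 2 of 22 had an unadjusted p under 0.05 with lower signal, against 5.43% of all. None had one with higher signal, against 1.37%. These 2 were Tubb5 AB011679_at, at 0.36 times the control diet signal (95% interval 0.23 to 0.56, limma adjusted p = 0.342), and Dpysl3, at 0.53 times (0.29 to 0.97, adjusted p = 0.691). They were also the 2 at least 1.5-fold lower, against 8.45% of all, and 0 were at least 1.5-fold higher, against 4.12%. The Tubb5 probe set passed when fetal alcohol array 1 was left out (limma adjusted p = 0.0492) or array 2 was (0.0482), where only the control diet arrays gave the spread. Over its other alternatives the adjusted p ran as high as 0.99997, and the log2 difference stayed between -1.53 and -1.31. The isocaloric array lay below both control diet arrays at 12 of 22, against 37.5% of all, and above both at 2, against 38.3%. The log2 difference was under 0 at 15 of 22, against 48.6% of all, with a median of -0.18. Counted by gene at the brightest tested probe set, the lean was smaller. The isocaloric array lay below both control diet arrays at 4 of 9 genes, and the log2 difference was under 0 at 5 of 9, with a median of -0.05. The 12 probe sets below both control diet arrays included all 3 of Mapt, with log2 differences from -0.49 to -0.21, and both of Tubb5. Tubb5 rc_AA860030_s_at had -0.28 ± 0.19. Gap43, Stmn1 and the 2 Dpysl2 probe sets differed from control diet by between -0.05 and 0.06.

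Other genes of the growth cone and the cytoskeleton were read at the brightest tested probe set of each gene. None passed in any of the 3 comparisons. Over all tested probe sets, 49.5% were lower with fetal alcohol than with control diet. Among 18 other growth cone and axon proteins, 6 were higher and 12 lower with fetal alcohol than with control diet, with a median log2 difference of -0.04. Basp1, another kinase C substrate of growth cone membranes, measured 2557 and 2307 on the fetal alcohol arrays, 1953 on the isocaloric one and 2113 and 2313 on the control diet arrays, so the fetal alcohol and control diet arrays overlapped and the isocaloric array was the lowest. Stmn4, a stathmin of the nervous system, measured 919 and 1020.5 on the fetal alcohol arrays, 908 on the isocaloric one and 706 and 694 on the control diet arrays, so both fetal alcohol values were the higher ones (0.46 ± 0.21, limma adjusted p = 0.909). Ptprs, a receptor phosphatase of axons, had -0.44 ± 0.22 and Nfasc, neurofascin, -0.25 ± 0.24. The other tested probe sets of Ptprs gave -1.51 and -0.17. For isocaloric minus control diet, the brightest probe sets had -0.59 for Ptprs and -0.17 for Nfasc.

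Of 4 other tubulins, 3 were lower with fetal alcohol than with control diet, against 49.5% of all tested probe sets, with a median log2 difference of -0.22. It was -0.014 after quantile normalization, which makes the brightest values nearly equal by construction, Tubb2b among them. Tubb2b, a beta-tubulin of developing neurons, measured 6089.6 and 5421 on the fetal alcohol arrays, 6142 on the isocaloric one and 7843 and 7195 on the control diet arrays (-0.39 ± 0.15), while Tuba1b had -0.27 ± 0.18 and Tuba4a 0.29 ± 0.25. Of 17 actin genes and regulators, 14 were lower, against 49.5% of all tested probe sets, with a median of -0.20, and of -0.13 after quantile normalization. Actg1, cytoplasmic gamma-actin, had -0.41 ± 0.15, Ppp1r9b, the spine protein spinophilin, -0.46 ± 0.24, and Arpc1b, of the complex that nucleates actin branches, 0.68 ± 0.44 with 1 low control diet array, and 0.15 at its other probe set. Isocaloric minus control diet gave -0.29 for Tubb2b, -0.43 for Tuba1b and 0.21 for Tuba4a. It gave -0.32 for Actg1, -0.47 for Ppp1r9b and 0.55 for Arpc1b. Tubb2b, Tuba1b and Actg1 are themselves among the bright probe sets on which the uneven top of the scale was measured. That shift is therefore no separate measure for them.

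The 9 microtubule motor genes had a median of 0.12, with 6 higher, and one between 0.030 (without control diet array 2) and 0.18 (without control diet array 1) with 1 array left out. Dynlt1, a dynein light chain, had 0.34 ± 0.23 (0.07 at its other probe set), Dync1h1, the dynein heavy chain, -0.27 ± 0.22, and Dync1i2, a dynein intermediate chain, 0.25 ± 0.27. Of 8 other microtubule-binding genes, 4 were higher and 4 lower, with a median of -0.05, and of 0.24 without fetal alcohol array 1. Mapre1, which tracks growing microtubule ends, had 0.51 ± 0.25, Map1a, the mature relative of Map1b, -0.33 ± 0.30, and Map6 0.28 ± 0.24, with -0.03 for Map1a and 0.05 for Map6 at their other probe sets. All 5 intermediate filament genes were lower on the isocaloric array than on both control diet arrays, against 37.5% of all tested probe sets. Their median log2 difference was -0.37, which was -0.051 without control diet array 1 and -0.60 without array 2. Ina, alpha-internexin, measured 479 and 545 on the fetal alcohol arrays, 373 on the isocaloric one and 975 and 755 on the control diet arrays. Its log2 differences were -0.74 ± 0.24 for fetal alcohol minus control diet and -1.18 ± 0.29 for isocaloric minus control diet (limma adjusted p = 0.69 and 0.461), and at its second probe set 0.04 and -0.69. Nefl, the light neurofilament chain, had 0.44 ± 0.27 and Nefh, the heavy one, -0.34 ± 0.23 for fetal alcohol minus control diet. The second Nefl probe set gave 0.57. Isocaloric minus control diet gave -0.37 for Nefl and -0.60 for Nefh at the brightest probe sets.

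Kinases, phosphatases and calmodulin genes whose products act on these proteins showed no shared direction, with 9 higher and 15 lower and a median of -0.01 over 24 genes, which was 0.13 without control diet array 1. Camk2d had 0.59 ± 0.33, Mark1, which phosphorylates microtubule-associated proteins, -0.56 ± 0.36, and Prkcb, a kinase C isoform, 0.52 ± 0.32. The other tested probe sets gave -0.11 for Camk2d, and 0.34 and -0.12 for Prkcb. Isocaloric minus control diet gave 0.50 for Camk2d, 0.16 for Mark1 and 0.21 for Prkcb at the brightest probe sets. For Prkcb the fetal alcohol arrays measured 292 and 566, against 292 and 270.0 on the control diet arrays, so array 2 alone was high. Elavl4, the neuronal RNA-binding protein HuD, which stabilises the Gap43 transcript, measured 204 and 222 on the fetal alcohol arrays, 162 on the isocaloric one and 195 and 208 on the control diet arrays. Its fetal alcohol and control diet values overlapped, as those of Gap43 did. The other named RNA-binding proteins, Ptbp1 and Zfp36, had 0.16 ± 0.25 and -0.13 ± 0.29 for fetal alcohol minus control diet. Their other tested probe sets gave -0.03 for Ptbp1 and -0.14 for Zfp36. Isocaloric minus control diet gave 0.47 for Ptbp1 and 0.36 for Zfp36 at the brightest probe sets.

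**Figure D4:**
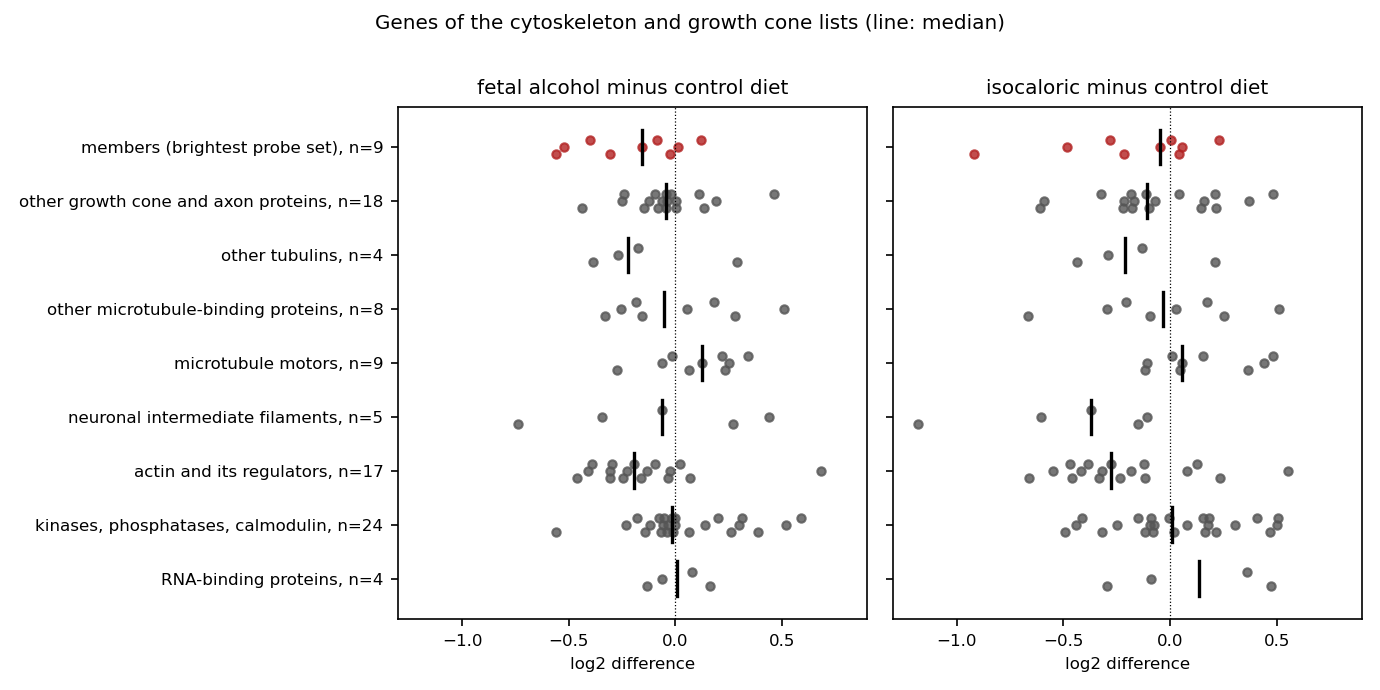
Points are genes at their brightest tested probe set, short black lines are list medians, and the x axis is the log2 difference from control diet for fetal alcohol (left) and isocaloric diet (right). Actin genes lie mostly left of 0 in the left panel (14 of 17, against 49.5% of all tested probe sets), and all 5 neuronal intermediate filament genes lie left of 0 in the right panel (against 48.6%).

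Marker genes of neurons had no shared direction between the fetal alcohol arrays. Of 8 tested neuron markers, 4 were lower on array 1 than on array 2, near the 52.7% of all tested probe sets, and 4 were higher. The 4 lower ones differed by 0.56 to 1.09 on the log2 scale. The median log2 difference of array 2 minus array 1 was 0.27 over the 8, against 0.30 over the 22 member probe sets. With 4 markers on each side of 0, ranging from -0.45 to 1.09, that median is the middle of a split set. The summed intensity of the 8, which follows the brightest of them, was 6659 and 6373 on the fetal alcohol arrays, 5843 on the isocaloric one and 6860.2 and 6528 on the control diet arrays. The part of these markers in the members' differences was not tested. The sum over 5 choroid plexus markers was 1201 and 287 on the fetal alcohol arrays, 6076 on the isocaloric one and 5694 and 5347 on the control diet arrays, and that over 9 meninges markers was 4529 and 3785, 3902, and 5944 and 5903 in the same order. These tissues border the hippocampus. With fetal alcohol, 4 of 5 and 9 of 9 of their markers were below control diet, against 49.5% of all tested probe sets. Meninges markers were low on the isocaloric array too, with 8 of 9 below control diet, against 48.6% of all. Of the 5 choroid plexus markers, 4 were above control diet there. The part of both tissues in the differences of the members was not tested. Astrocyte markers summed to between 8029.5 and 9206 over the 5 arrays and microglia markers to between 576 and 969.6. Those of oligodendrocytes lay between 296 and 446, and those of proliferating cells between 618 and 916. No tested marker of these lists was under the offset of 10.6 on any array.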

How the data were processed

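The authors deposited 1 linear intensity for each probe set on each array, and the software that made it is not given in the sources used here. Their 2% trimmed means differed between arrays by a factor of 1.0002 at most, so they were used as deposited, and array medians were 49.0 to 55.7. Leaving out 59 control probe sets, intensities became log2(intensity + 10.6), the offset being the 20th percentile; this shrinks the log2 differences of dim probe sets. Those under the 40th percentile of mean log2 value stayed untested, leaving 5244. Symbols are those of the platform annotation, which gave exactly 1 symbol to 7006 probe sets. One limma model (version 3.58.1, R 4.3.3) held all 3 comparisons, with an intensity trend in eBayes, 2-sided tests and Benjamini-Hochberg adjustment over all 5244, with 2 residual and 6.30 prior degrees of freedom. An exact permutation test of 2 against 2 arrays cannot go below p = 0.333. Scan dates and detection calls were not used here, and no batch could be examined. Precision is limited by the number of arrays.

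Members, lists and tests were chosen with earlier results of these data known. Named genes are every probe set of the members, Elavl4, Basp1, and from each list up to 3 genes with the largest absolute difference between fetal alcohol and control diet. Lists are described by counts and medians only. Alternatives were 2 other scalings, 2 other offsets, 2 other filters, no intensity trend, each array left out, and the replicate number as a block.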

Additional observations from a re-analysis of the deposited data

How the results depend on the processing

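The fit rests on 5 arrays and 2 residual degrees of freedom, and the isocaloric array has no replicate. In the main settings 0 probe sets of the whole array passed in any comparison, while 294, 221 and 357 had an unadjusted p under 0.05 for fetal alcohol minus control diet, fetal alcohol minus isocaloric diet and isocaloric minus control diet. For fetal alcohol minus control diet, 9 passed with equal medians, 1 with an offset of 50, 1 with quantile normalization and 8 with the replicate block, and 0 to 25 with 1 array left out. For fetal alcohol minus isocaloric diet, 3 passed with equal medians, 3 with quantile normalization and 0 to 12 with 1 array left out. For isocaloric minus control diet, 0 to 13 passed with 1 array left out. The fits without fetal alcohol array 1 gave 17, 10 and 11 in these 3 comparisons and those without array 2 gave 25, 12 and 13. Among the members, 2 of 758 recomputed values passed, both Tubb5 AB011679_at for isocaloric minus control diet, and 53 changed sign or reached 0, 39 of them with an array left out. The causes were not tested. With the replicate block, fitted on the 4 numbered arrays, 0 member probe sets passed. The numbers are balanced over both groups, so the block leaves every estimate the same by construction, and the unmoved estimates are no check. The labels give no pairing, and same-numbered arrays' deviations from their group means correlated at -0.11.

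With 1 array left out, the log2 difference for fetal alcohol minus control diet crossed 0 for these probe sets, ranging from -0.27 to 0.10 for Dpysl2 Z46882cds_at, -0.12 to 0.14 for Gap43 L21192_at, -0.022 to 0.26 for Map1b U52950_at, -0.050 to 0.26 for Map1b U52950_g_at, -0.52 to 0.21 for Map2 U30938_at, -0.58 to 0.31 for Map2 X17682_s_at and -2.06 to 0.45 for Map2 X53455cds_s_at. It ranged from -0.21 to 0.28 for Mapt rc_AA957930_s_at, -0.21 to 0.044 for Mapt X79321_at, -0.66 to 0.63 for Marcks rc_AA859896_at, -1.15 to 0.10 for Marcks rc_AA899253_at, -0.38 to 0.094 for Marcks rc_AA925762_at and -0.11 to 0.060 for Stmn1 rc_AI231821_at. For fetal alcohol minus isocaloric diet the ranges that crossed 0 were -0.046 to 0.76 for Dpysl3 U52104_at, -0.072 to 0.18 for Gap43 L21192_at, -0.12 to 0.34 for Map1b X16623cds_s_at, -0.37 to 0.17 for Map2 rc_AI228850_s_at, -0.57 to 0.17 for Map2 U30938_at, -0.80 to 0.083 for Map2 X17682_s_at and -2.03 to 0.48 for Map2 X53455cds_s_at. They were -0.74 to 0.55 for Marcks rc_AA859896_at, -0.24 to 0.23 for Marcks rc_AA925762_at, -0.55 to 0.28 for Marcks rc_AA955167_s_at and -0.080 to 0.033 for Tubb5 rc_AA860030_s_at. For isocaloric minus control diet they were -0.060 to 0.17 for Dpysl2 rc_AA875444_at, -0.13 to 0.24 for Dpysl2 Z46882cds_at, -0.17 to 0.074 for Gap43 L21192_at, -0.25 to 0.055 for Map1b U52950_g_at, -0.24 to 0.33 for Map2 U30938_at, -0.090 to 0.54 for Map2 X17682_s_at, -0.49 to 0.44 for Map2 X53455cds_s_at and -0.080 to 0.088 for Stmn1 rc_AI231821_at.

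The other 14 came from another scaling or offset. The main values were under 0.1 in size for all of them but Mapt rc_AI227608_s_at (-0.21) and Tubb5 rc_AA860030_s_at (-0.28) in isocaloric minus control diet and Tubb5 rc_AA860030_s_at (-0.31) in fetal alcohol minus control diet. These larger ones changed with quantile normalization. For the Tubb5 probe set that scaling gives nearly equal values by construction, so its change there holds no measure of a difference. The Mapt probe set ranked 25 to 46 in brightness over the arrays, also in the top that this scaling makes alike, so its change is no separate check. With equal medians the log2 difference was 0.016 for Gap43 L21192_at and 0.026 for Map2 X53455cds_s_at in isocaloric minus control diet, and 0.018 for Marcks rc_AA859896_at and 0.020 for Stmn1 rc_AI231821_at in fetal alcohol minus control diet. With an offset of 50 it was 0.021 for Marcks rc_AA859896_at in fetal alcohol minus control diet. With quantile normalization it was -0.00046 for Map2 U30938_at, 0.013 for Map2 X53455cds_s_at, 0.069 for Mapt rc_AI227608_s_at and 0.011 for Tubb5 rc_AA860030_s_at in isocaloric minus control diet. It was also 0.020 for Marcks rc_AA859896_at, 0.11 for Stmn1 rc_AI231821_at and 0 for Tubb5 rc_AA860030_s_at in fetal alcohol minus control diet, and 0.017 for Marcks rc_AA925762_at and 0.052 for Stmn1 rc_AI231821_at in fetal alcohol minus isocaloric diet.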
